A study of Drosophila melanogaster with 3 samples.

Results

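Tetraspanin genes of the fruit fly were examined for sites of Blimp-1, a zinc finger repressor induced by the moulting hormone ecdysone. The members were all protein-coding genes whose symbol is Tsp followed by a digit, which gave 34 of 13945 genes, 17 of them in the Tsp42E cluster and 17 elsewhere. RefSeq names the products of all 34 as tetraspanins. Their sites came from the authors' own peak list, which was cut by irreproducible discovery rate (IDR). The family was picked from earlier results of these data. The counts and levels of sites below therefore describe the family and are given without a test.

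The data come from ChIP-seq of whole prepupae, with males and females pooled, at an age that the labels give as unknown. All animals came from 1 transgenic line that stably expresses Blimp-1 with GFP at its C terminus, and the precipitation used an antibody against GFP. There were 3 biological replicates of this single group and no second condition. The labels name a possible control experiment, which was not analysed here. Whole animals were used, so weaker binding and binding in fewer cells cannot be told apart. The lists give no read counts, so the depth is unknown.

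Tetraspanins are small cell-surface proteins that pass through the membrane several times and gather integrins, proteases and other receptors into membrane domains. In flies, Tsp2A builds the smooth septate junctions of the gut, and Tsp3A, Tsp26A and Tsp86D assist the protease Kuzbanian in Notch signalling. Tsp42Ej acts in photoreceptors in the turnover of rhodopsin, and lbm, which lies inside the cluster, in the forming of motor neuron synapses. Blimp-1 recognises a sequence around GAAAG.

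The windows below show the DNA at the strongest site of 4 genes, 100 bp to each side of the summit, so that the Blimp-1 core can be seen in place. They are plus-strand RefSeq sequence of dm6. The capitals mark GAAAG on either strand and the DNA replication-related element TATCGATA, which was searched after the first sequence had been read. The windows are chr3R:26964731-26964931 for Tsp97E, chr3L:8913761-8913961 for Tsp66E, chr2L:8937001-8937201 for Tsp29Fb and chr3R:25880596-25880796 for Tsp96F.
Tsp97E: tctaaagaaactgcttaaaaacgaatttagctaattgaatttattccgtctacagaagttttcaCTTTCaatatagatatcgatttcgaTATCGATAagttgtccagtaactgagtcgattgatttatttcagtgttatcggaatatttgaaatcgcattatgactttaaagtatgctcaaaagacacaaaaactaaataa
Tsp66E: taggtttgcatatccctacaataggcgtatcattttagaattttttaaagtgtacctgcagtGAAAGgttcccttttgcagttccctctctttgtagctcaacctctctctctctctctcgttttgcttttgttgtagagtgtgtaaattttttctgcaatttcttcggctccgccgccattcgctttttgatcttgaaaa
Tsp29Fb: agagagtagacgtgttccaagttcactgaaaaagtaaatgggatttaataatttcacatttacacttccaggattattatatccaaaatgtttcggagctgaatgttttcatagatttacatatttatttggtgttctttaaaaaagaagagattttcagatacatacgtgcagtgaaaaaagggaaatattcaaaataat
Tsp96F: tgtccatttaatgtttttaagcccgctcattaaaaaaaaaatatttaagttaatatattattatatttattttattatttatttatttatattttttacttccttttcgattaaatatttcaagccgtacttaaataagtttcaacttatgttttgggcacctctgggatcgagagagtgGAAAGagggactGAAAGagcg

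The Tsp97E window holds 1 GAAAG, on the minus strand, and 1 TATCGATA, whose centre lies 7 bp from the summit. The Tsp66E window holds 1 GAAAG within a GTGAAAG, 36 bp before the summit, and a run of CT repeats just after the summit. The Tsp96F window has 2 GAAAG at its edge, and the Tsp29Fb window has 0. G or C made up 39.8% of the Tsp66E window and between 26.9% and 28.9% of the other three.

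The Tsp97E promoter carried by far the highest signal in the family. Signal is given as relative signal, which is the strongest peak overlapping the site in a replicate's list, divided by that replicate's median site. The median covered only sites with a peak in that list. Of all 4990 sites, 2, 35 and 589 were thus left out in replicates 1, 2 and 3. The Tsp97E site, on chromosome 3R from 26964416 to 26965243, had a relative signal of 10.9 in replicate 1, 13.96 in replicate 2 and 8.28 in replicate 3. All 3 replicates lay above every replicate value of every other tetraspanin site. The mean was 11.05 ± 2.84 (SD, n = 3), and the site ranked 18 among all sites by the authors' pooled signal. Its summit lay 14 bp upstream of the only transcription start site (TSS) annotated for Tsp97E, and the region reaches into the 3′ end of the neighbouring gustatory receptor gene Gr97a. A second, weaker site lay in an intron of Tsp97E, 961 bp downstream of the TSS, at 1.26, 0.8 and 1.42 in replicates 1, 2 and 3 (mean 1.16 ± 0.32, SD, n = 3).

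**Figure D1:**
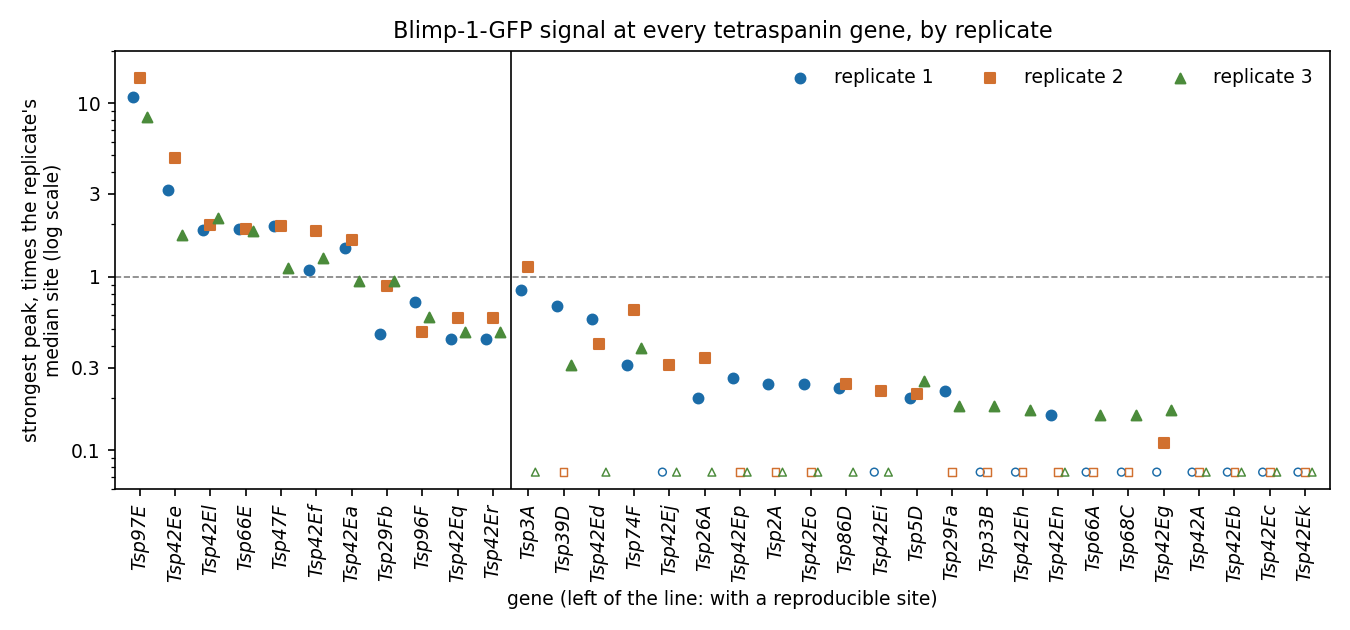
Strongest Blimp-1-GFP peak at each of the 34 tetraspanin genes in each replicate, on a log axis, as a multiple of the replicate's median site (dashed line). Filled marks are peaks and open marks at the bottom are replicates with no peak in their list. Left of the vertical line are the 11 genes with a reproducible site, led by Tsp97E at 8.28 to 13.96.

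Of the 34 genes, 11 had a site, a higher share than among all genes. A gene counted when a summit lay in its body or within 1000 bp of one of its TSSs, which held for 11 of the 34 genes (32.4%) and for 22.3% of all protein-coding genes. All 11 also had a promoter site, a summit within 1000 bp of a TSS, against 18.7% of all genes. Longer genes had sites more often, and the family's share was above that of all genes in each length class. Under 2000 bp, 3 of 14 tetraspanin genes had one (21.4%; all genes 10.6%). Tsp42Eq (1462 bp) and Tsp42Er (1715 bp), both in this class, were counted from the same site. From 2000 bp to under 5000 bp, 4 of 14 had one (28.6%; all genes 21.7%). At 5000 bp or more, 4 of 6 had one (66.7%; all genes 44.9%). The members with a site had a median length of 3073 bp and those without one 2055 bp. Each of these shares rests on few genes, and no test was made.

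The 11 genes shared 14 sites, of which 8 had their summit in an intron, 5 upstream of the gene and 1 in a 5′ UTR, with 0 in coding sequence. The summits of 11 sites lay within 1000 bp of the gene's own TSS, and at 9 sites the nearest TSS of any protein-coding gene belonged to a tetraspanin gene. Their mean relative signal ran from 0.49 to 11.05 with a median of 1.34, against a median of 0.98 over all sites. Replicate 3 gave the lowest median over the 14 sites, at 1.05, below 1.36 in replicate 1 and 1.53 in replicate 2. The replicate 3 divisor also left out the most sites, 589 with no peak in its list. All 14 had a peak in the list of every replicate, as did 4374 of all 4990 sites, but these lists reach down to background. In 9 of the 14 sites (64.3%) that peak was among the 4990 strongest in each replicate, which held for 56.9% of all sites. Counted by gene, 7 of 34 had such a site, against 13.3% of all genes.

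**Figure D2:**
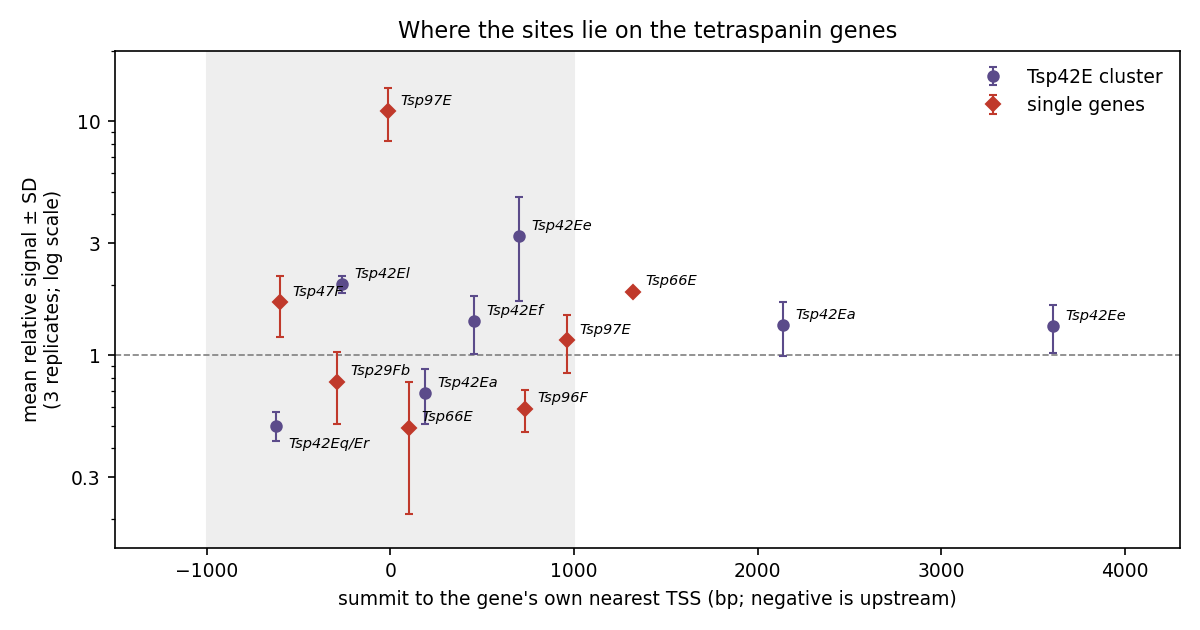
Mean relative signal (log axis; bars are SD over 3 replicates) of the 14 sites against the distance of the summit from the gene's own nearest TSS in bp, with the promoter window of 1000 bp shaded. The site shared by Tsp42Eq and Tsp42Er is placed at its distance from the Tsp42Eq TSS. The Tsp97E site 14 bp upstream stands at 11.05, and 3 sites of Tsp66E, Tsp42Ea and Tsp42Ee lie downstream of the window.

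By mean signal, Tsp66E followed Tsp97E among the single genes, although the Tsp47F site was higher in replicates 1 and 2. Tsp66E, the longest of the family at 19567 bp, had an intronic site on chromosome 3L from 8913761 to 8914076, at 1.89, 1.89 and 1.84 in replicates 1 to 3. This was the steadiest of the 14 sites (mean 1.87 ± 0.03, SD, n = 3). Its summit lay 1319 bp downstream of the Tsp66E TSS and 1190 bp upstream of a TSS of mfr, a gene needed in sperm. A weaker Tsp66E site fell in the 5′ UTR, 101 bp from its TSS and 11 bp from one of mfr. It was at 0.57, 0.72 and 0.17 (mean 0.49 ± 0.28, SD, n = 3). Replicate 3 was well below the others and near the lowest relative signal of its list, 0.16.

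Tsp47F, Tsp29Fb and Tsp96F had 1 site each. Tsp47F, on chromosome 2R, had a site 601 bp upstream of its TSS at 1.97, 1.97 and 1.13 (mean 1.69 ± 0.49, SD, n = 3), lowest in replicate 3. Tsp29Fb had one 289 bp upstream at 0.47, 0.89 and 0.95 (mean 0.77 ± 0.26, SD, n = 3), lowest in replicate 1. Its neighbour Tsp29Fa, which lies upstream of it on the same strand, had none. Tsp96F had an intronic site 731 bp downstream of its TSS at 0.72, 0.48 and 0.59 (mean 0.59 ± 0.12, SD, n = 3). Ordered by their means, the Tsp97E promoter site stood apart in all 3 replicates, while every later site overlapped the next in its range over replicates.

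The Tsp42E cluster holds 17 tetraspanin genes matching the symbol rule among 24 protein-coding genes in 73.4 kb of chromosome 2R, from 6992676 to 7066113. With 1000 bp added at each end, it held 8 sites, or 10.6 per 100 kb, against 3.78 on the whole arm and 3.73 in the genome. The cluster is dense in genes, and its rate was not compared with other gene-dense regions. Sites lay at 6 of its 17 members (35.3%), against 5 of the 17 single genes (29.4%) and 22.3% of all genes, and 1 further site lay at lbm. The longest stretch without a summit ran from 32.79 kb to 52.83 kb after the start of Tsp42Ea, where Tsp42Eg, Tsp42Eh, Tsp42Ei, Tsp42Ej and Tsp42Ek had no site.

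**Figure D3:**
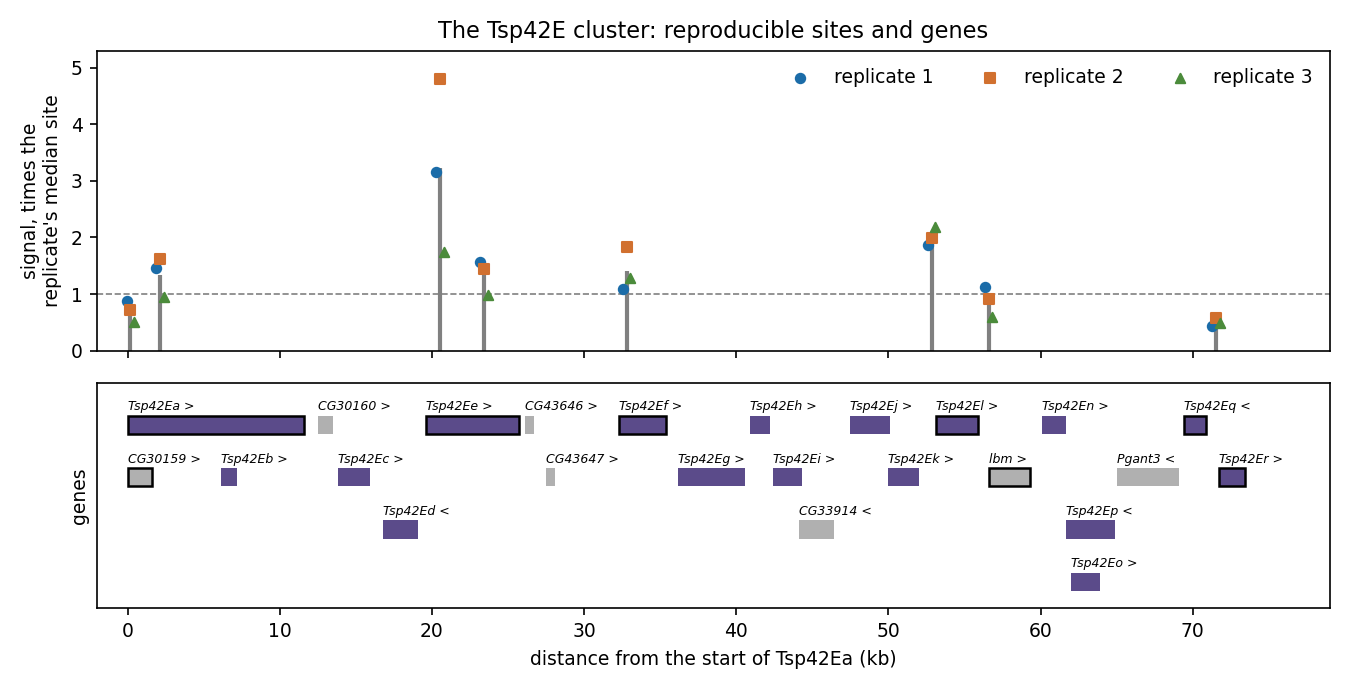
Map of the Tsp42E cluster in kb from the start of Tsp42Ea. Top, relative signal of its 8 sites in each replicate, with bars for the mean and a dashed line at the median site. Bottom, protein-coding genes (purple, tetraspanin genes of the symbol rule; grey, others; arrowheads, strand; black outline, with a site). The Tsp42Ee promoter site is highest, with a mean of 3.23.

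Tsp42Ee had the strongest site of the cluster, in an intron 700 bp downstream of a TSS (7012940 to 7013469). Its relative signal was 3.15, 4.8 and 1.74 in replicates 1, 2 and 3, with a mean of 3.23 ± 1.53 (SD, n = 3) and rank 312. Replicate 3 fell under the values of the next site, so the order of these 2 sites did not hold in every replicate. That next site, 266 bp upstream of Tsp42El (7045420 to 7045951), was at 1.87, 1.99 and 2.18 (mean 2.01 ± 0.16, SD, n = 3). Tsp42El was thus the second member of the cluster by signal, and the replicates agreed more closely there than at Tsp42Ee.

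Of the other tetraspanin sites of the cluster, 3 were above the median site and 2 below it. Tsp42Ef had one in an intron 457 bp downstream of its TSS at 1.09, 1.83 and 1.29. Tsp42Ea had an intronic site 2136 bp from its TSS, nearer to one of CG30159 (1897 bp), at 1.46, 1.62 and 0.95. Tsp42Ee had a second one 3608 bp from its TSS, nearer to one of CG43646 (2667 bp), at 1.57, 1.44 and 0.98. All of these averaged between 1.33 and 1.4 and overlapped in range. The promoter site of Tsp42Ea, 189 bp downstream of its TSS, was at 0.87, 0.71 and 0.51 (mean 0.69 ± 0.18, SD, n = 3). It also lay 50 bp upstream of a TSS of CG30159, which lies within Tsp42Ea. Tsp42Eq and Tsp42Er, which are transcribed away from each other, shared a site between them at 0.44, 0.58 and 0.48 (mean 0.5 ± 0.07, SD, n = 3). The summit lay 625 bp upstream of Tsp42Eq and 205 bp upstream of Tsp42Er. In none of the replicates was it among the 4990 strongest peaks.

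Tsp74F, just below the weakest peak of the authors' IDR list, had signal similar to that of the weakest members inside it. The authors' pooled signal of the weakest listed peak of the genome was 205. Just inside stood the 5′ UTR site of Tsp66E at 212 and the Tsp42Eq and Tsp42Er site at 213. Just outside stood Tsp74F at 196. Tsp42Ed followed further below at 155, with peaks of 0.57 and 0.41 in replicates 1 and 2 and no peak in replicate 3. Tsp74F had a peak in every replicate's relaxed list, at 0.31, 0.64 and 0.39, a range that overlaps that of the Tsp42Eq and Tsp42Er site.

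The other 23 genes had no reproducible site. They were Tsp2A, Tsp3A, Tsp5D, Tsp26A, Tsp29Fa, Tsp33B, Tsp39D, Tsp42A, Tsp66A, Tsp68C, Tsp74F and Tsp86D, and in the cluster Tsp42Eb, Tsp42Ec, Tsp42Ed, Tsp42Eg, Tsp42Eh, Tsp42Ei, Tsp42Ej, Tsp42Ek, Tsp42En, Tsp42Eo and Tsp42Ep. Among these 23 were the members known for Notch signalling (Tsp3A, Tsp26A, Tsp86D) and for the gut's smooth septate junction (Tsp2A), too few to set against the 22.3% of all genes that had a site. The distance from a TSS of these 23 genes to the nearest site ran from 1446 bp at Tsp42Ed to 85985 bp at Tsp42A, with a median of 6646 bp. In the relaxed lists, which hold 30000 peaks each and reach down to background, 2 of the 23 had a peak in all 3 replicates, 7 in 2, 10 in 1 and 4 in 0. Over those with any peak, the mean strongest peak had a median of 0.23, not far above the lowest relative signal in the lists (0.16, 0.1 and 0.16 in replicates 1 to 3). Over the whole family, 13 of 34 genes (38.2%) had a relaxed peak in all 3 replicates, against 28.3% of all genes. These 13 included all 11 genes with a site, so this share largely repeats the share with a site.

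Genes that work with tetraspanins were looked up in a short list, together with lbm and TM4SF, 2 tetraspanin genes outside the symbol rule. Of 19 genes, 7 had a site, where 22.3% of all protein-coding genes had one, and with so few genes in each group the counts are a description. Only lbm, aph-1 and scb had a promoter site, as did 18.7% of all genes. The sites of kuz, N, mys and mew all lay outside the promoter window. Gene length was not taken into account here. Of 7 integrin subunit genes, 3 had a site. The strongest lay 132 bp upstream of scb, which encodes an alpha subunit, at 6.79, 6.81 and 8.22 (mean 7.27 ± 0.82, SD, n = 3; rank 73). Among the tetraspanin sites, the Tsp97E promoter site alone had a higher mean. mew, another alpha subunit gene, had 5 sites, the strongest at 2.34 ± 0.66 (SD, n = 3). The TSS nearest to that site was of CG32639, 4082 bp away. mys, the main beta subunit gene, had 1 at 1.17 and 1.7 in replicates 1 and 2, with no peak in replicate 3.

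Of 7 genes for Notch and its cleavage, kuz, N and aph-1 had sites. kuz, which encodes the Kuzbanian protease, had its strongest one deep in an intron, 20992 bp from its TSS, at 1.88, 1.85 and 2.18 (mean 1.97 ± 0.18, SD, n = 3). N reached 1.34 ± 0.47 (SD, n = 3) in an intron, where the nearest TSS was of CG18508, 10601 bp away. aph-1, a subunit gene of gamma-secretase, reached 1.6 ± 0.48 (SD, n = 3) at a promoter site nearer to Snx21. The smooth septate junction genes Ssk, mesh and hoka, which work with Tsp2A, had 0 sites. Of the tetraspanin genes outside the symbol rule, lbm had a site 15 bp downstream of its TSS at 1.12, 0.91 and 0.6, and TM4SF had none.

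The Blimp-1 core was searched within 100 bp of each summit on both strands. GTGAAAG lay at 2 of the 14 sites (14.3%), the Tsp42Ee promoter site and the intronic Tsp66E site, and at 8.5% of all sites. The shorter GAAAG, which GTGAAAG contains, lay at 11 of 14 (78.6%) and at 55.4% of all sites. The full PRDI-BF1 consensus was found at 0 of 14 without mismatch and at 3 of 14 with 1 mismatch (21.4%; all sites 22.1%). With so few sites these shares describe the family only.

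The near matches to the full consensus were at Tsp97E, Tsp66E and the intronic Tsp42Ea site. At Tsp97E the match is on the minus strand at chr3R:26964787-26964797, centred 39 bp from the summit, and at Tsp66E on the plus strand at chr3L:8913819-8913829, 37 bp from the summit. Both are shown, read along the strand of the match, since they are the closest sequences to the consensus at these sites, with the mismatch in capitals. At Tsp66E the GAAAG capitals of the window printed above lie inside the match. At Tsp97E the capitals overlap only the first bases of the match, and the mismatch falls in the GAAAG of the consensus.
Tsp97E match: aagtgaaaAct
Tsp66E match: cagtgaaagGt

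The motifs of other factors were counted the same way. GAGAG, bound by the GAGA factor Trl, lay at 6 of 14 sites and at 32.0% of all sites. At the intronic Tsp66E site it was repeated on the minus strand within 17 bp of the summit. TATCGATA, the DNA replication-related element, lay at 1 of 14 sites, the Tsp97E promoter site, and at 1.44% of all sites. This element was searched after the Tsp97E sequence had been read, so its presence there is no independent finding. The strong Tsp42El site held none of the motifs searched.

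**Figure D4:**
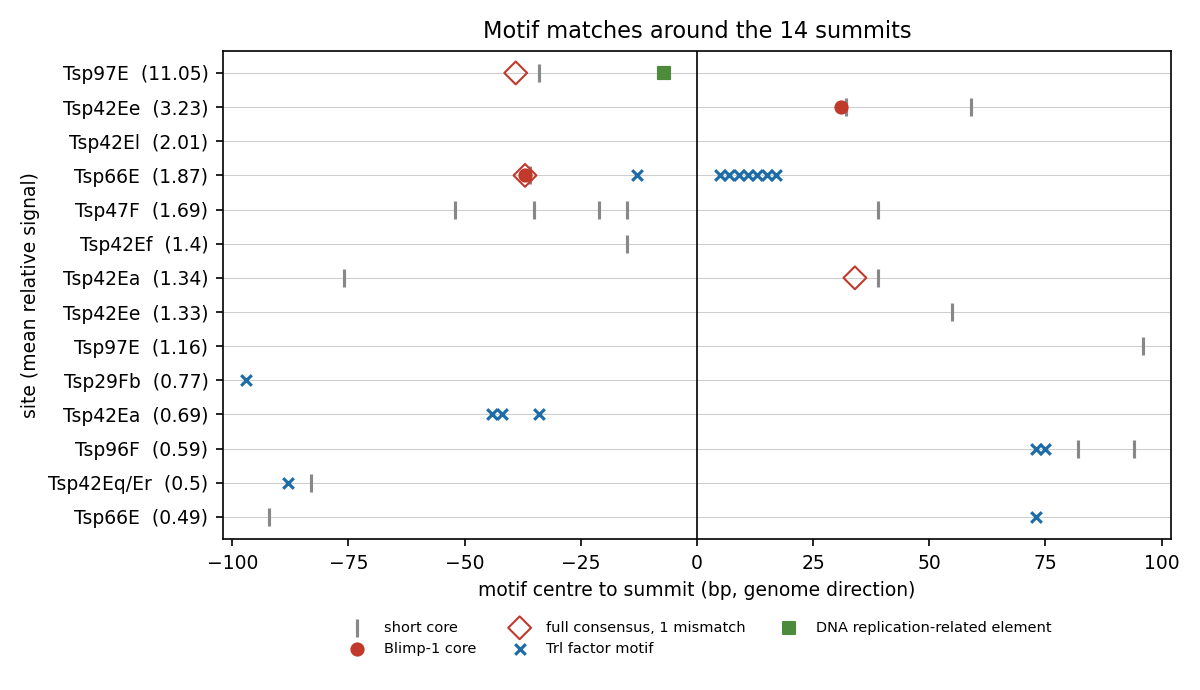
Motif matches within 100 bp of the 14 summits (x axis, bp from summit to motif centre; rows, sites from the highest mean relative signal at the top to the lowest). Marks show the short and the longer Blimp-1 core, the full consensus with 1 mismatch, the Trl factor motif and the DNA replication-related element. Where a row has the short core, its matches lie nearer the summit in the upper rows than in the lower ones. This was seen after the positions were known. Over all sites, 46.9% of those with a mean of 1.33 or more and 41.7% of the weaker ones had it within 60 bp.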

How the data were processed

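ChIP-seq peak lists of 3 biological replicates were used on dm6. Per the file headers of the deposited text, they are narrowPeak lists, relaxed for each replicate and pooled, and 1 list cut by irreproducible discovery rate (IDR). The relaxed lists derive from the replicates' alignments and 1 further file of unstated role. Not given in the sources used here were the aligner, the peak caller and how each was run. Column 7, the signal deposited by the authors, has no stated scaling, and column 10 gives the summit; 22 summits at a peak's end were moved inside. The dm3 lists were not used.

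The 5573 IDR peaks were joined where they overlapped by 1 bp, giving 4990 sites. Genes came from Ensembl release 115 and sequence from RefSeq release 6. Peak and gene positions lie within its chromosome lengths. Python 3.11.15 with pandas 2.3.3 was used, tested on simulated data. Every member with a site is named with its values, the others once, with values also where they border the IDR list. Tsp3A was given values after they were seen. Of the short list of partners and other tetraspanins, every gene with a site is named. nct was matched as Nct. Members, lists and motifs were chosen with earlier results of these data known. No test was made, since there is 1 group. The labels give the replicates as biological, with separate biosamples of 1 line. Alternatives were the TSS window, peak list, replicate support, nearest-TSS assignment, merging, scaling, motif window and each replicate left out.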

Additional observations from a re-analysis of the deposited data

How the results depend on the processing

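Within 500 bp of a TSS, 7 genes kept a promoter site and 9 a site of any kind, in place of 11 each. Those 9 were 26.5% of the members, against 20.5% of all genes. With the 2500 strongest peaks, 7 genes had a site, 5 a promoter site, and there were 9 sites, 5 of them in the cluster. With support from all 3 replicates, the counts were 7 genes, 5 with a promoter site, and 9 sites. Assigned to the nearest TSS alone, 9 sites were at tetraspanin genes and 4 in the cluster. They lay at 8 genes (23.5%), against 16.7% of all genes. With sites supported by both other replicates when 1 was left out, 7 to 8 genes had a site and 6 a promoter site, at 10 sites, 6 to 7 in the cluster. All of these settings keep fewer assignments by construction, and the share of all genes with a site fell too. With the 2500 strongest peaks, 20.6% of members and 12.8% of all genes had a site. With support from all 3 replicates the shares were 20.6% and 13.3%. They were 23.5% and 13.8% without replicate 1, and 23.5% and 14.5% without replicate 2. Without replicate 3 they lay closest, at 20.6% and 17.7%. The median relative signal was 0.88 when scaled to the mean site, which is higher than the median one, and 1.24 to 1.48 with 1 replicate left out. Counts with the other windows, unmerged peaks and the core motif stayed within 1.5 times the values reported. No paired analysis was possible because there is 1 group. Depth is unknown, so it is not known what depth limits.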

Other observations

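Tsp3A, which assists Kuzbanian in Notch signalling, had a promoter peak in 2 replicates that no peak of the pooled list overlaps. The pooled list's only entry at the gene was a weaker peak elsewhere, with a signal of 47.1 and rank 26920. It was picked out after its values had been seen. The summits lay 167 bp upstream of its TSS in replicate 1 and 171 bp in replicate 2, with relative signals of 0.84 and 1.14, higher than at Tsp29Fb in replicate 1. They ranked 3459 and 2297 in those replicates' lists, and replicate 3 had no peak there. Among 2270 peaks of replicate 1 at least as strong as this one and overlapped by a replicate 2 peak at least as strong as that at Tsp3A, 6 (0.264%) had no peak in the pooled list, of which 5 also had none in replicate 3. The cause was not tested.

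GAAAG lay near the summits of the stronger tetraspanin sites. Of the 8 sites with a mean relative signal of 1.33 or more, 7 had a GAAAG within 60 bp of the summit, and of the 6 weaker ones 0 had one. Over all 4990 sites split at the same signal, the shares were 46.9% and 41.7%. The distance and the split were chosen after the positions had been seen, so no test was made.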
